A study of Mus musculus with 24 samples.

Results

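The genes described here move calcium in the heart muscle cell. The group has 7 members, Atp2a2, Casq2, Cacna1c, Ryr2, Pln, Slc8a1 and Camk2d, and a region was assigned to a member where it overlapped the gene or lay within 2 kb of it in mm10 RefSeq coordinates. Of the 53386 regions in the deposited tables, 39 met this rule, and they fell in 4 of the 7 genes. Cacna1c held 27 regions, Atp2a2 held 6, Casq2 held 4 and Camk2d held 2. Ryr2, Pln and Slc8a1 held none.

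H3K9me2 is dimethylation of lysine 9 of histone H3, a mark that is laid down by G9a and GLP and is found over broad stretches of silent or weakly used chromatin. In a heartbeat, calcium enters through the L-type channel, whose pore is made by Cacna1c, and opens the ryanodine receptor Ryr2, which releases the calcium that Casq2 holds inside the sarcoplasmic reticulum. The pump SERCA2a, made from Atp2a2, returns calcium to that store under the brake of phospholamban, Pln. The exchanger NCX1, made from Slc8a1, carries calcium out of the cell, and the kinase Camk2d phosphorylates several of these proteins.

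The 24 libraries came from the hearts of 6 C57BL6 mice aged 12 months, 3 female and 3 male, numbered 17, 19, 22, 23, 27 and 30. All had gone through ischemic preconditioning, in which the left coronary artery was closed for 5 minutes and opened for 5 minutes in 4 cycles, with 30 minutes of reperfusion at the end. The groups were H3K9me2 of the area at risk (the muscle fed by the closed artery), input of the area at risk, H3K9me2 of the remote myocardium (muscle of the same hearts away from it) and input of the remote myocardium, with 6 mice each. Input is the same digested chromatin without the antibody step. Remote myocardium is the only comparison tissue here, and it comes from preconditioned hearts too; sham hearts were not analysed here. Libraries held 416683 to 1196368 counts for H3K9me2 of the area at risk, 1286383 to 2478668 for its input, 443261 to 981763 for H3K9me2 of the remote myocardium and 1405503 to 1770520 for its input. A biopsy mixes heart muscle cells with fibroblasts, endothelial cells and others, and DNA counts do not show their shares, so the mark on fewer cells and less of the mark per cell cannot be told apart.

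Cacna1c, on chromosome 6 at 118587240 to 119197384, had 4.43 regions per 100 kb, against a median of 0.174 in the 269 protein-coding genes whose length was within 1.5 times its own. Atp2a2, on chromosome 5 at 122453513 to 122502225, had 12.3 per 100 kb, against a median of 2.43 in 3636 genes of like length. Casq2, on chromosome 3 at 102086415 to 102146514, had 6.66 per 100 kb, against 2.09 in its 3245 genes of like length. Camk2d, on the same chromosome at 126595487 to 126846326, had 0.797 per 100 kb, against 0.574 in 850 genes. The absence of a region was common: 42.8% of genes as long as Ryr2, 40.2% of those as long as Pln and 39.8% of those as long as Slc8a1 had none either. The nearest listed region was 104 kb from Ryr2 (chromosome 13, 11553099 to 12106945), 66.8 kb from Pln (chromosome 10, 53337686 to 53345999) and 82.9 kb from Slc8a1 (chromosome 17, 81373105 to 81738387). Nothing is measured at these 3 genes here, since the tables hold counts only inside regions. Regions of a gene are numbered below from the lowest coordinate up, as the deposited tables place them.

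Promoters of some members are shown from 250 bases before to 50 bases after the RefSeq start of build GRCm38.p6, 5′ to 3′ on the gene's strand, with each CG in capitals. Of the 3 RefSeq starts of Cacna1c, the 2 that regions cover were added after the values were seen, and the other, with 7 CG and 3026 bases from the nearest region, is not shown. Casq2 is shown by the rule for genes with a called end, although that end is its 3′ end and its promoter lies 21785 bases from the nearest region. RefSeq's table held a promoter for 6 of the 7 members; Atp2a2 was the other.
Camk2d, chr3:126596701-126597000, plus strand, inside region 1: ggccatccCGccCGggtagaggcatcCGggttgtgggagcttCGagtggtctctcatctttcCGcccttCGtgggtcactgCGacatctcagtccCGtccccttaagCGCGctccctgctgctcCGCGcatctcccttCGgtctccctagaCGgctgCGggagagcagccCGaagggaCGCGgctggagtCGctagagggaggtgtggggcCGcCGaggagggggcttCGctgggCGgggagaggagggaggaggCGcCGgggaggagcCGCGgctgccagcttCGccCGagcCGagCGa
Cacna1c, chr6:119108446-119108745, minus strand, inside region 23: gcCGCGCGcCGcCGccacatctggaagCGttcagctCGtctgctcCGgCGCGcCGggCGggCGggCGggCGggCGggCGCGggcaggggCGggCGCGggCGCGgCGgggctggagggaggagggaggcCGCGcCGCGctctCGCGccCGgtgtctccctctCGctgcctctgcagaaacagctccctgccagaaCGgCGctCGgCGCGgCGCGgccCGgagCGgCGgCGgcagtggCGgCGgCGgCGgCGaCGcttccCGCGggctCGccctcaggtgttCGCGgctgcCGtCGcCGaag
Cacna1c, chr6:119196360-119196659, minus strand, inside region 27: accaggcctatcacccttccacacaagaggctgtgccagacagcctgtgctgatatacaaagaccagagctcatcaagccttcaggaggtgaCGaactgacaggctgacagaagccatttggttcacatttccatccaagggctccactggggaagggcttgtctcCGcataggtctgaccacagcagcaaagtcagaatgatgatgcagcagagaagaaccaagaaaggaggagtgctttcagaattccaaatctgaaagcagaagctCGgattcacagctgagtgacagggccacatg
Casq2, chr3:102086165-102086464, plus strand, in no region: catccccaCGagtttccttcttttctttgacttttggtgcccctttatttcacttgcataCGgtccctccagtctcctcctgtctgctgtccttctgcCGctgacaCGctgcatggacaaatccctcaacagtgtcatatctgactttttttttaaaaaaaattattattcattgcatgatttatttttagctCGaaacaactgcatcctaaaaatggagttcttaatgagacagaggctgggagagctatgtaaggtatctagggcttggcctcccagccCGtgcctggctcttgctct

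These starts differed widely in CG content. The inner Cacna1c start held 57 CG and was 81.3% G or C, and 0.152% of the 32851 RefSeq mouse promoters of this length held as many CG. The outer Cacna1c start held 3 CG, below the median of 7. Camk2d held 31 CG, as many or more than which 10.6% of promoters held, and Casq2 held 6. The letters GGGCGG, counted on both strands with overlaps and each holding a CG of its own, occurred 6 times in the inner Cacna1c promoter, 3 times in that of Camk2d and in neither of the others shown, and 35.7% of all promoters held them. TATAAA, also on both strands, was in none of the 4, and 13.6% of promoters held it. Whether promoter sequence had a part in the H3K9me2 values was not tested.

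The fitted H3K9me2 over input was above 0 at most tested regions of Cacna1c and at all 4 of Casq2, below 0 at all 6 of Atp2a2, and on both sides within Camk2d. The regions cover 11.3% of the bases of Cacna1c, 15.8% of Casq2, 12.8% of Atp2a2 and 1.36% of Camk2d, and nothing was measured between them. A region was called when edgeR's quasi-likelihood test over all regions gave a Benjamini-Hochberg adjusted p under 0.05, and values are log2 of H3K9me2 over input with the standard error (SE). In the area at risk, 9 of the 35 member regions that passed the filter on low counts were called higher and 4 lower, and 11.4% and 12.3% of all tested regions were called so. Of the remote myocardium's 35 regions 14 were higher and 7 lower, against 20.6% and 19.9% of all. The median of the 35 was 0.24 in the area at risk and 0.32 for remote myocardium, with 0.01 over all regions in both. Cacna1c alone held 23 of the 35, with 6 of the 9 higher calls in the area at risk and 11 of the 14 in the remote myocardium. The values of both biopsies had the same sign in 34 of 35 regions (Pearson r = 0.88 and Spearman's rho = 0.60 across regions, which are not independent replicates and whose libraries come from the same mice). Of the higher calls 7 were shared, which is 77.8% of those in the area at risk and 50% of those in the remote myocardium, and all 4 lower calls of the area at risk were among the 7 of the remote myocardium. The calls of the area at risk rested on few libraries: 3 higher calls were left without mouse 19 and 4 without mouse 17 or mouse 22, and 2 lower calls were left without mouse 17 or mouse 30. Higher calls over all regions fell as well, from 4662 to 2904, 3184 and 3594 without mouse 19, 17 and 22 in turn. In the remote myocardium 7 higher calls were left without mouse 27. Counting error at these depths is large: the 38 member regions with any read held between 79 and 1569 reads each over all 24 libraries, and a Cacna1c region that lies inside another held none. The authors' deposited tables gave 8 member regions higher and 4 lower in the area at risk, and 12 higher and 6 lower in the remote myocardium, at their FDR under 0.05.

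Atp2a2, the gene of the pump that refills the calcium store, was the member with the lowest H3K9me2 relative to input. All 6 of its regions lay below input in both biopsies. In the area at risk 3 were called lower, against 12.3% of all tested regions, and in the remote myocardium all 6, against 19.9%. The strongest was region 5, at 122501600 to 122503199, which spans the high-coordinate end of the gene. In the area at risk it held 2.97, 4.37 and 8.36 CPM (counts per 1000000 of the library's total; lowest, median and highest of 6 mice) in H3K9me2, against 12.2, 16.7 and 19.7 CPM in input. Remote myocardium gave 1.45, 5.71 and 10.2 CPM in H3K9me2, against 13.1, 19.0 and 22.6 CPM in input. Every H3K9me2 library was below every input library in each biopsy. The log2 ratio was -1.65 (SE 0.30, edgeR adjusted p = 6.29e-05) in the area at risk and -1.74 (SE 0.28, edgeR adjusted p = 6.17e-08) in the remote myocardium, below 0 in 6 of 6 mice both times.

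The other Atp2a2 regions were low too, with regions 2, 3 and 4 inside the gene and regions 1 and 6 outside it but within 2 kb. Region 3, a body region at 122458800 to 122460999, was at -0.95 (SE 0.26, edgeR adjusted p = 0.00526) in the area at risk and -0.86 (SE 0.23, edgeR adjusted p = 0.00110) in the remote myocardium. Region 2, at 122454400 to 122455999 by the low-coordinate end, held 4.45, 8.40 and 15.02 CPM in H3K9me2 of the area at risk, against 12.8, 17.8 and 20.2 CPM in its input. Its values in the remote myocardium were 4.51, 10.2 and 11.7 CPM in H3K9me2, against 17.9, 19.6 and 21.8 CPM in input. The groups overlapped in the area at risk and did not in the remote myocardium, and the ratios were -0.78 (SE 0.26, edgeR adjusted p = 0.0214) and -1.07 (SE 0.24, edgeR adjusted p = 8.63e-05). Without mouse 17, 19 or 30 the area at risk value was -0.66, -0.73 and -0.66 in turn and no longer called (edgeR adjusted p = 0.0841, 0.0587 and 0.0791). Region 4, a body region at 122469400 to 122471199, was at -0.58 in the area at risk (SE 0.26, edgeR adjusted p = 0.0946) and called in the remote myocardium at -1.30 (SE 0.27, edgeR adjusted p = 2.48e-05). The area at risk value was -0.95 and called when mouse 23 was left out (edgeR adjusted p = 0.0147). With the mouse as a block, region 1, chosen after its values were seen, was called in the area at risk too (-0.69, edgeR adjusted p = 0.0493, against 0.0655 without the block). Region 6, chosen likewise, was called in the remote myocardium (-0.68, edgeR adjusted p = 0.0355), but not with DESeq2 (DESeq2 adjusted p = 0.0906) and not without mouse 23, 27 or 30 (edgeR adjusted p = 0.0852, 0.0737 and 0.167). This region also lies within 2 kb of the gene Gm22965.

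Per length, the low value was on the side of H3K9me2. The median Atp2a2 region averaged 5.74 CPM per kb in H3K9me2 of the area at risk and 9.59 CPM per kb in its input, which are the 11.0th and the 73.7th percentile of the 32718 listed regions that overlap no other. In the remote myocardium it averaged 4.52 CPM per kb in H3K9me2, at the 5.41st percentile, and 9.42 CPM per kb in input, at the 69.2nd.

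Casq2, whose product buffers calcium in the sarcoplasmic reticulum, lay on the other side of input. All 4 of its regions were above 0 in both biopsies, and 2 were called in each. Among all tested regions of the area at risk, 51.0% lay above 0 and 11.4% were called higher. For remote myocardium these shares were 50.7% and 20.6%. Region 4, at 102145400 to 102148399 over the 3′ end, held 28.8, 34.1 and 40.1 CPM in H3K9me2 of the area at risk, against 19.4, 25.0 and 33.6 CPM in its input. Away from the closed artery it held 20.4, 37.9 and 49.6 CPM in H3K9me2 of the remote myocardium, against 19.1, 26.1 and 31.6 CPM in input. The H3K9me2 values were higher in most mice and the groups overlapped, with ratios of 0.44 (SE 0.17, edgeR adjusted p = 0.0439) in the area at risk and 0.49 (SE 0.16, edgeR adjusted p = 0.00839) in the remote myocardium, above 0 in 5 of 6 mice each. The call of the area at risk did not hold without mouse 17, 19, 22, 23 or 30 (edgeR adjusted p from 0.0637 to 0.155), with DESeq2 (DESeq2 adjusted p = 0.0925) or among regions that overlap no other (edgeR adjusted p = 0.0613), and that of the remote myocardium did not hold without mouse 27 (edgeR adjusted p = 0.0604). Region 1, a body region at 102108200 to 102111399, was called in the area at risk (0.60, SE 0.17, edgeR adjusted p = 0.00867), was above input in 6 of 6 mice, and stood at 0.48 without mouse 19 (edgeR adjusted p = 0.0681). In the remote myocardium it was at 0.33 (edgeR adjusted p = 0.108). Region 2, at 102124600 to 102127599, showed the opposite order, with 0.04 in the area at risk (edgeR adjusted p = 0.897) and 0.50 in the remote myocardium (SE 0.15, edgeR adjusted p = 0.00584). The difference between the biopsies in region 2 is given with the biopsy contrasts.

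**Figure D1:**
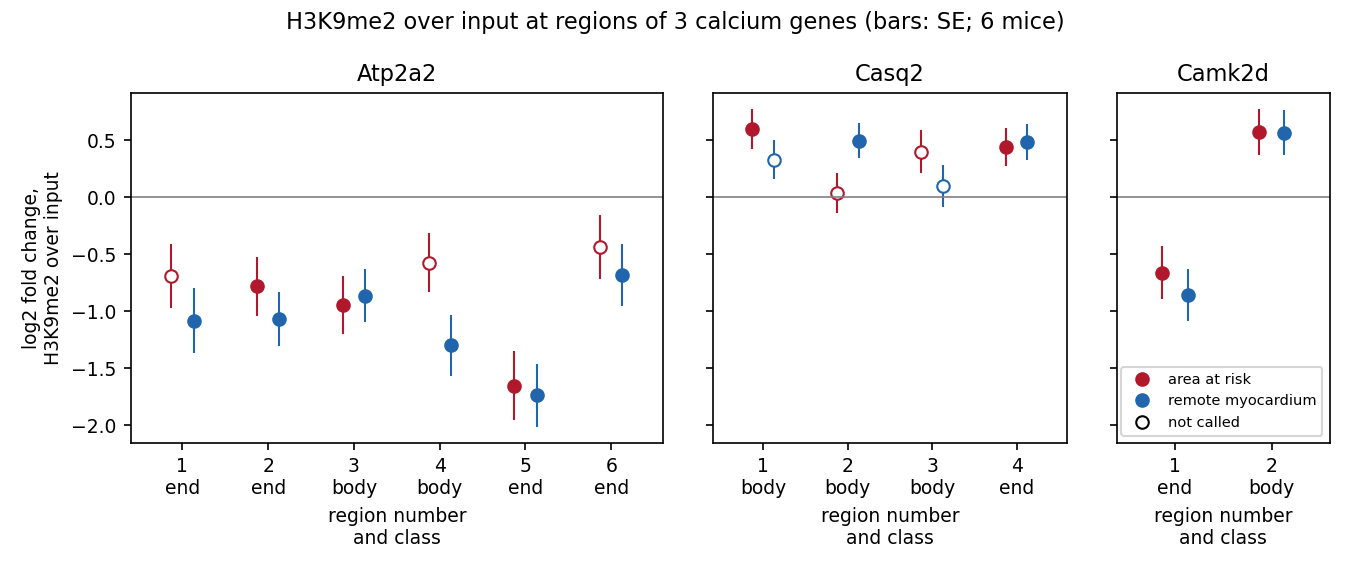
Log2 of H3K9me2 over input (vertical axis) for each region (horizontal axis, numbered within the gene) of Atp2a2, Casq2 and Camk2d, with SE bars from 6 mice and filled points for called regions. All 6 Atp2a2 regions lie below 0, all 4 Casq2 regions above 0, and the 2 Camk2d regions lie on opposite sides, at -0.66 and 0.57 in the area at risk.

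Camk2d, the main calcium and calmodulin dependent kinase of heart muscle, carried a region at its start and another inside the gene, and they went opposite ways. Region 1, at 126596000 to 126597999, holds the CG-rich promoter printed above. It held 9.004, 11.7 and 18.4 CPM in H3K9me2 of the area at risk, against 11.7, 21.3 and 26.2 CPM in its input. Remote myocardium gave 6.19, 11.4 and 16.03 CPM in H3K9me2, against 16.4, 19.6 and 27.9 CPM in input. The groups overlapped in the area at risk and did not in the remote myocardium, where every H3K9me2 library was below every input library. The ratios were -0.66 (SE 0.23, edgeR adjusted p = 0.0293) and -0.86 (SE 0.23, edgeR adjusted p = 0.00107), below 0 in 6 of 6 mice in each biopsy.

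Region 2 of Camk2d, at 126732200 to 126733599 and 137 kb from the 5′ end of the gene, had the opposite sign. It held 17.6, 24.4 and 36.0 CPM in H3K9me2 of the area at risk, against 13.7, 16.6 and 18.7 CPM in its input. Its values in the remote myocardium were 11.3, 23.95 and 33.7 CPM in H3K9me2, against 9.97, 15.9 and 18.5 CPM in input. H3K9me2 was above input in 5 of 6 mice of each biopsy and the groups overlapped, with ratios of 0.57 (SE 0.20, edgeR adjusted p = 0.0322) in the area at risk and 0.57 (SE 0.20, edgeR adjusted p = 0.0150) in the remote myocardium. In the area at risk the call of region 1 did not hold without mouse 17, 22, 27 or 30 (edgeR adjusted p from 0.0571 to 0.0884), nor that of region 2 without mouse 17, 19, 22, 27 or 30 (from 0.0655 to 0.112), nor either with DESeq2 (DESeq2 adjusted p = 0.0756 and 0.0522). Without mouse 27, region 2 stood at 0.31 in the remote myocardium (edgeR adjusted p = 0.273).

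Cacna1c, the pore subunit of the L-type calcium channel, held regions from 0.7 to 604 kb from its 5′ end, with a gap of up to 131 kb between neighbours. Of its 27 regions 23 were tested, 6 were called higher in the area at risk and 11 for remote myocardium, and none was called lower in either biopsy. The higher calls are 26.1% and 47.8% of those tested, against 11.4% and 20.6% of all tested regions. In the area at risk 21 of the 23 were above 0, and in the remote myocardium 22 were. Region 3, at 118761000 to 118763399, had the smallest p in the remote myocardium. In the area at risk it held 23.7, 24.5 and 30.6 CPM in H3K9me2, against 14.5, 23.5 and 29.7 CPM in input, and the ratio was 0.19 (SE 0.19, edgeR adjusted p = 0.494). Away from the closed artery it held 26.5, 31.8 and 37.8 CPM in H3K9me2 of the remote myocardium, against 12.1, 17.1 and 21.5 CPM in input, with no overlap and a ratio of 0.82 (SE 0.18, edgeR adjusted p = 5.39e-05), above 0 in 6 of 6 mice.

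Region 2, at 118624400 to 118629999, was the widest member region and had the most reads. It held 49.3, 66.8 and 95.4 CPM in H3K9me2 of the area at risk, against 41.5, 50.05 and 53.6 CPM in its input. Remote myocardium gave 53.9, 65.7 and 74.3 CPM in H3K9me2, against 49.8, 53.1 and 55.5 CPM in input. Most H3K9me2 libraries were above input and the groups overlapped in both biopsies, with ratios of 0.44 (SE 0.13, edgeR adjusted p = 0.00927) and 0.29 (SE 0.12, edgeR adjusted p = 0.0363). The first of these became 0.35 without mouse 19 (edgeR adjusted p = 0.0591), and the second was not called without mouse 19, 23, 27 or 30 (edgeR adjusted p from 0.0795 to 0.149), with DESeq2 (DESeq2 adjusted p = 0.0685) or among regions that overlap no other (edgeR adjusted p = 0.0833). Regions 12 and 16 had the highest values of the area at risk, at 0.67 (SE 0.17, edgeR adjusted p = 0.00226) and 0.68 (SE 0.21, edgeR adjusted p = 0.0124), and were chosen after their values were seen. In the remote myocardium they were at 0.34 (edgeR adjusted p = 0.0480, and 0.0569 with the mouse as a block) and 0.06 (edgeR adjusted p = 0.841). Region 16 was no longer called in the area at risk without mouse 19, 22 or 27 (edgeR adjusted p = 0.0557, 0.0679 and 0.0568), nor region 12 in the remote myocardium without mouse 19, 22, 23 or 27 (from 0.0520 to 0.250), with DESeq2 (DESeq2 adjusted p = 0.0959) or among regions that overlap no other (edgeR adjusted p = 0.0901).

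Neither of the regions that hold the 2 printed Cacna1c starts was called higher in either biopsy. Region 27, at 119196000 to 119197399 by the 5′ end, also lies within 2 kb of Dcp1b, a decapping factor gene of the other strand. It was at -0.03 (SE 0.25, edgeR adjusted p = 0.940) in the area at risk and 0.20 (SE 0.24, edgeR adjusted p = 0.530) in the remote myocardium, and its few reads, 4 to 18 per H3K9me2 library of the area at risk, leave differences of this size undetectable. Region 23, at 119105400 to 119109999, holds the inner start with 57 CG and was chosen after its value was seen. It held 25.2, 32.0 and 40.04 CPM in H3K9me2 of the area at risk, against 32.6, 42.8 and 48.4 CPM in its input. Its values in the remote myocardium were 37.7, 40.7 and 54.1 CPM in H3K9me2, against 33.0, 42.8 and 52.6 CPM in input. H3K9me2 was the lower of the pair in 6 of 6 mice in the area at risk, where the ratio was -0.35 (SE 0.15, edgeR adjusted p = 0.0733), and in 4 of 6 in the remote myocardium, where it was -0.05 (SE 0.14, edgeR adjusted p = 0.807). With the mouse as a block the area at risk value was -0.38 and called (edgeR adjusted p = 0.0474), and it was called likewise among regions that overlap no other (-0.39, edgeR adjusted p = 0.0492).

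**Figure D2:**
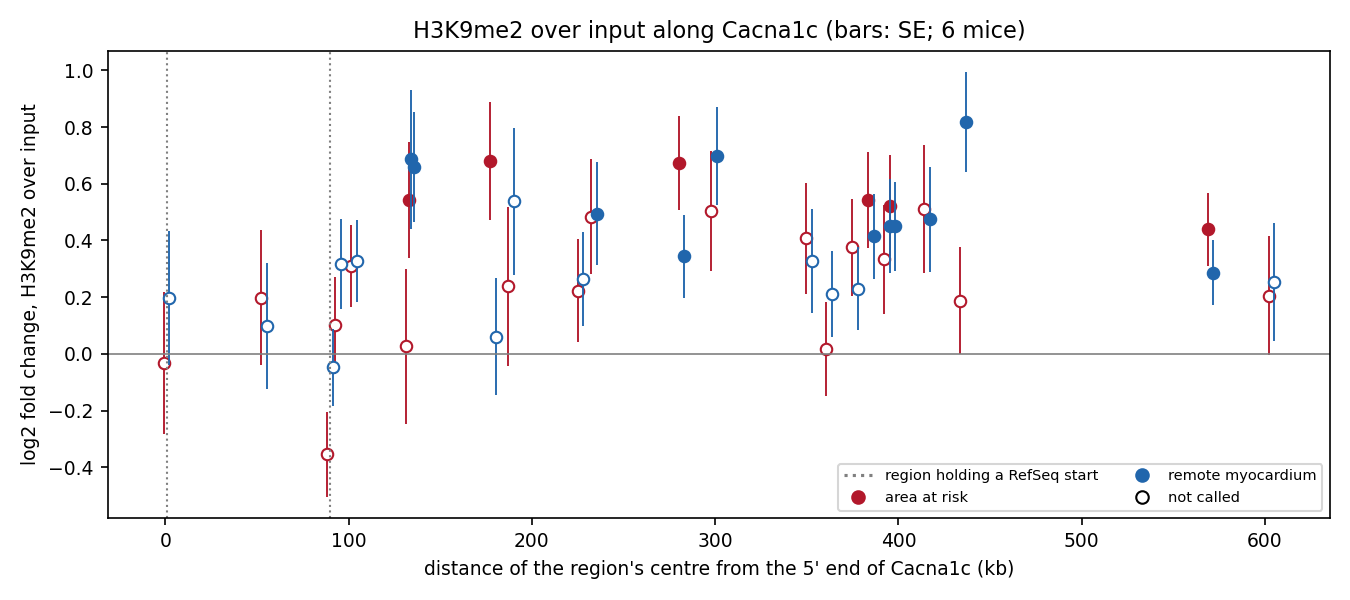
Log2 of H3K9me2 over input (vertical axis) for the 23 tested Cacna1c regions against the distance of the region's centre from the 5′ end of the gene (horizontal axis, kb), with SE bars from 6 mice, filled points for called regions and the 2 biopsies set slightly apart sideways. Most points lie above 0, up to 0.82, and the 2 regions that hold a RefSeq start (dotted lines) lie near or below 0 in the area at risk, at -0.03 and -0.35.

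The raw counts were also summed over all body regions of each gene. The 26 Cacna1c body regions, 72.4 kb in all, held 287 to 685 counts per H3K9me2 library and 676 to 1249 per input library in the area at risk. As CPM these were 542, 687 and 800 in H3K9me2, against 504, 539 and 577 in input, and H3K9me2 was the higher in 6 of 6 mice. The Cacna1c body of the remote myocardium held 626, 708 and 751 CPM in H3K9me2, against 513, 535 and 571 CPM in input, so the groups did not overlap. The Casq2 body held 74.4, 91.0 and 108 CPM in H3K9me2 of the area at risk, against 64.3, 66.7 and 79.2 CPM in its input, and H3K9me2 was the higher in 6 of 6 mice here and in the remote myocardium. The Atp2a2 body held 14.4, 18.7 and 34.3 CPM in H3K9me2 of the area at risk, against 29.2, 33.6 and 51.4 CPM in its input, and H3K9me2 was the lower in 5 of 6 mice. In mouse 23 the Atp2a2 body was the other way round.

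**Figure D3:**
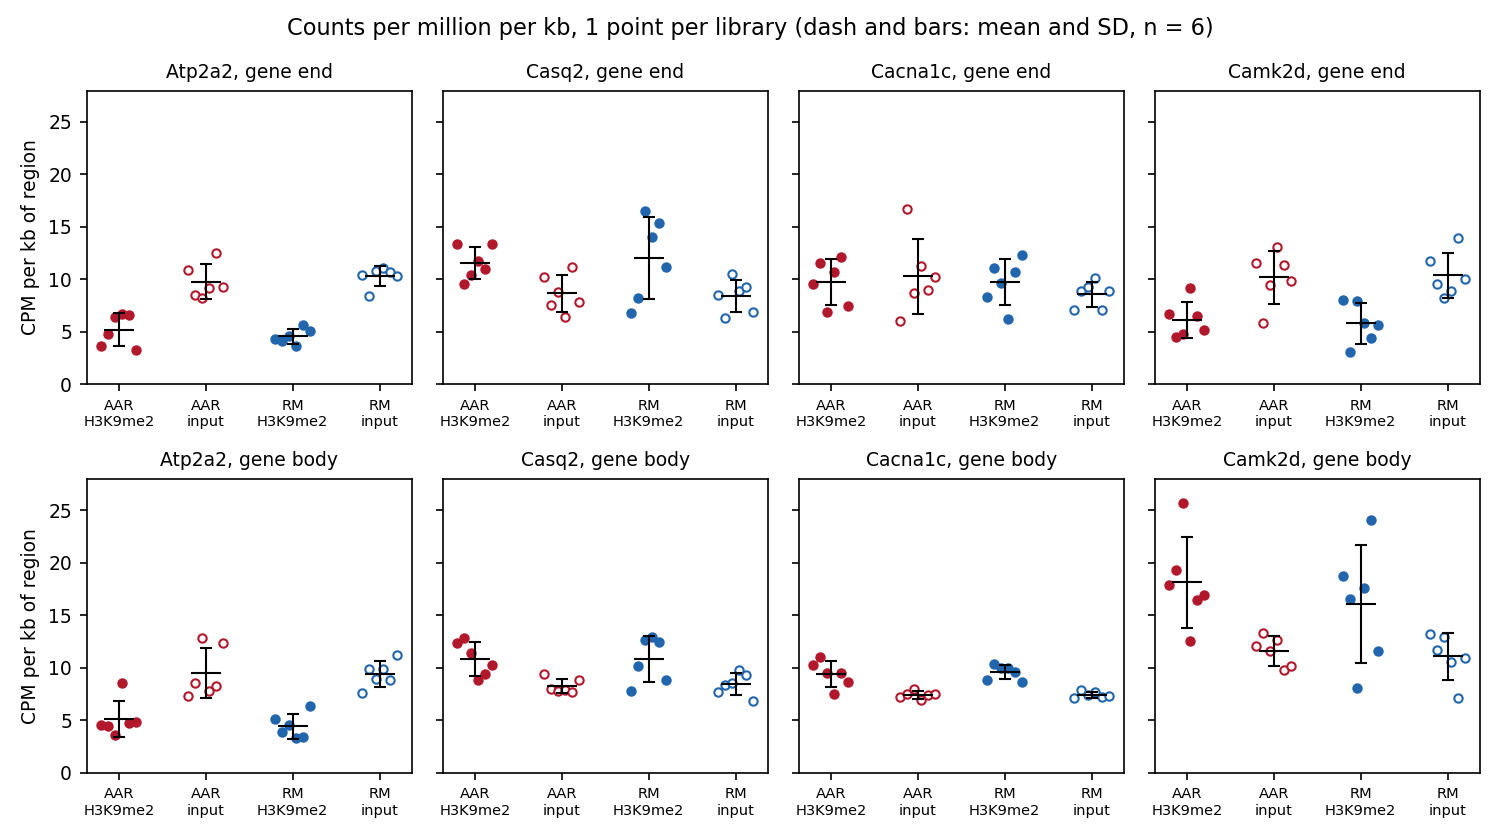
CPM per kb of region (vertical axis) in each of the 24 libraries, by group (horizontal axis; AAR is the area at risk and RM the remote myocardium), for gene ends (upper row) and gene bodies (lower row) of 4 genes, with the mean as a dash and bars of 1 SD (n = 6). At Atp2a2 ends every H3K9me2 library is below every input library, at 3.24 to 6.66 against 8.24 to 12.5 in the area at risk, while at the Casq2 and Cacna1c bodies H3K9me2 tends to be above input.

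Gene ends were then set against gene bodies. Regions touching the 2 kb on either side of a gene's first or last base were its ends, and its other regions were the body, which gave 7 end and 32 body regions over the 4 genes. Among the end regions 1 was called higher and 3 lower in the area at risk, and 1 higher and 5 lower in the remote myocardium. Among the 28 tested body regions 8 were called higher and 1 lower in the area at risk, and 13 higher and 2 lower in the remote myocardium. In the area at risk 14.3% of ends and 28.6% of bodies were higher, against 11.4% of all tested regions. There 42.9% and 3.57% were lower, against 12.3%. In the remote myocardium 14.3% and 46.4% were higher, against 20.6%, and 71.4% and 7.14% lower, against 19.9%. The shares of all tested regions were not split by place in a gene. Most of the low ends and all of the low bodies belong to Atp2a2. Cacna1c alone gave 22 of the 28 tested body regions. It also gave 6 of the 8 higher body calls in the area at risk and 11 of the 13 in the remote myocardium. The split between ends and bodies therefore had to be read within each gene.

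Within genes, the end stood apart from the body only at Camk2d among the 4 members, in a fit that asked whether the ratio of end to body differed between H3K9me2 and input. The Camk2d end to body ratio, per kb, was 0.187, 0.340 and 0.733 (lowest, median and highest of 6 mice) in H3K9me2 of the area at risk, against 0.438, 0.962 and 1.17 in its input. For the remote myocardium it was 0.181, 0.379 and 0.980 in H3K9me2, against 0.634, 0.864 and 1.96 in input. The H3K9me2 ratio was below that of input in 6 of 6 mice in the area at risk and in 5 of 6 for remote myocardium, where mouse 22 was the exception. On the log2 scale the difference was -1.22 (SE 0.32, edgeR adjusted p = 0.00323) and -1.42 (SE 0.30, edgeR adjusted p = 7.22e-05), at the 2.33rd and the 1.71st percentile of the 4846 and 4845 genes fitted. These libraries held 4 to 22 H3K9me2 reads at the Camk2d end and 5 to 27 at its body. Mouse by mouse, the remote difference was the less even, with an SD of 1.35 and a span of -3.43 (mouse 27) to 0.63 (mouse 22). The SD for the area at risk was 0.58. The fitted SE of the remote value was nonetheless no larger. Leaving out mouse 27 took the remote value to -0.995, still called (edgeR adjusted p = 0.0202). Neither biopsy lost the call when any other mouse was left out.

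For the other 3 genes the test found no difference between end and body. Atp2a2 was low at both, with ratios of -0.85 at ends and -0.76 in the body in the area at risk and -1.15 and -1.05 in the remote myocardium, and end minus body was -0.08 (SE 0.24, edgeR adjusted p = 0.873) and -0.10 (SE 0.24, edgeR adjusted p = 0.826). Casq2 was high at both, with end minus body at 0.10 (SE 0.18, edgeR adjusted p = 0.777) in the area at risk and 0.15 (SE 0.18, edgeR adjusted p = 0.578) in the remote myocardium. Cacna1c gave -0.33 (SE 0.23, edgeR adjusted p = 0.358) and -0.15 (SE 0.24, edgeR adjusted p = 0.696). Over all genes fitted the median was -0.19 in the area at risk and -0.22 for remote myocardium. Ends were called lower than bodies in 13.7% of genes in the area at risk and 21.7% for remote myocardium, and higher in 1.47% and 2.58%.

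The result for Cacna1c turned on which regions count as a start. A further class, added after the values were seen, took every region touching the 2 kb on either side of any RefSeq start. When this class was set against the other regions inside the gene, the inner start in region 23 joined the 5′ end. Cacna1c was then at -0.62 (SE 0.13, edgeR adjusted p = 0.000114) in the area at risk and -0.37 (SE 0.12, edgeR adjusted p = 0.0122) in the remote myocardium, with medians of -0.25 and -0.28 over all genes. These values lay at the 20.4th and the 41.8th percentile, and the start regions of the remote myocardium stood at 0.009. The value of region 23 was known when the class was made, so these p-values are not independent support. Camk2d kept -1.21 and -1.42. Start regions were called lower in 19.4% of genes in the area at risk and 25.3% for remote myocardium by this class. With the gene start alone, Cacna1c was at -0.33 and -0.15 and was not called (edgeR adjusted p = 0.321 and 0.686).

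**Figure D4:**
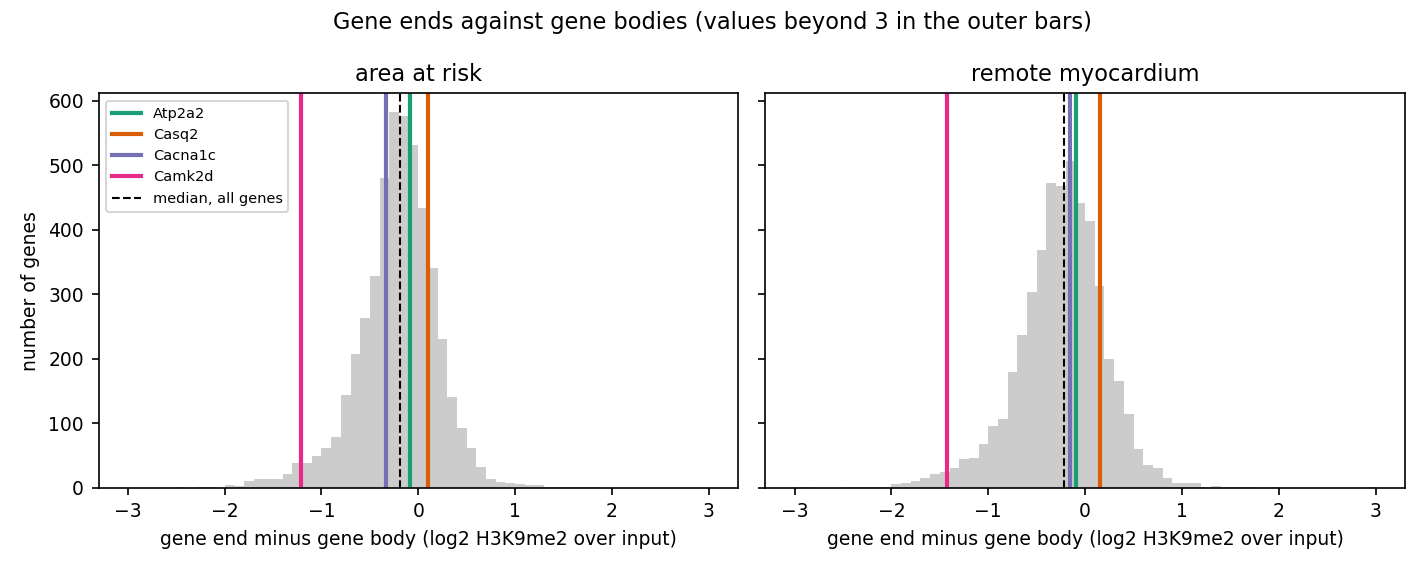
Number of protein-coding genes (vertical axis) by the log2 difference between gene end and gene body in H3K9me2 over input (horizontal axis), in the area at risk (left) and the remote myocardium (right), with a line for each of the 4 genes and a dashed line for the median of all. Camk2d lies in the left tail at -1.22 and -1.42, and Atp2a2 and Cacna1c lie nearer the middle, where the medians are -0.19 and -0.22. Casq2 lies to the right, at the 80.8th and the 83.8th percentile.

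The comparison that preconditioning implies is the area at risk over the remote myocardium. No member region differed between the biopsies in H3K9me2 (0 of 26 tested, 0% of all 31526), in input (0 of 35, 0% of all 42603) or in the input-corrected difference, which is the H3K9me2 over input ratio of the area at risk minus that of the remote myocardium (0 of 37, 0% of all 42445). By edgeR, 1261, 1158 and 1748 regions of the series had an unadjusted p under 0.05 in these 3 contrasts, and the lowest adjusted p values were 0.816, 1.00 and 0.592. Among the members 1, 0 and 2 regions did. Member values ran from -0.51 to 0.41 for H3K9me2, from -0.23 to 0.33 for input and from -0.66 to 0.75 for the input-corrected difference.

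The regions given for the biopsy contrasts were chosen after their values were seen. Casq2 region 2 had the smallest p of the members for H3K9me2, at -0.51 (SE 0.19, edgeR adjusted p = 0.999). It held 19.3, 24.5 and 36.8 CPM in H3K9me2 of the area at risk, against 24.8, 36.4 and 46.5 CPM in H3K9me2 of the remote myocardium, and was lower in 4 of 6 mice. Cacna1c region 16 had the highest value, 0.41 (SE 0.22, edgeR adjusted p = 0.999), and was higher in the area at risk in 6 of 6 mice. For the input-corrected difference Casq2 region 2 was at -0.45 (SE 0.24, edgeR adjusted p = 1.00). Cacna1c region 3 was at -0.62 (SE 0.25, edgeR adjusted p = 1.00), lower in 6 of 6 mice, and region 16 at 0.62 (SE 0.29, edgeR adjusted p = 1.00), higher in 4 of 6. Atp2a2 region 4 was at 0.75 (SE 0.40, edgeR adjusted p = 1.00) and Camk2d region 1 at 0.20 (SE 0.33, edgeR adjusted p = 1.00). None of these passed the test.

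No Atp2a2 region passed the filter on low counts for H3K9me2 between biopsies, nor did the start of Camk2d, 5 further Cacna1c regions or the empty one. Fitted without that filter, the 6 Atp2a2 regions lay between -0.12 and 0.68, the 5 Cacna1c regions between -0.55 and 1.17, and Camk2d region 1 was at 0.22, with no call. The SE of these values was 0.28 to 0.67, and even the value of 1.17, at Cacna1c region 26 (SE 0.67, edgeR adjusted p = 0.998), was not called at this depth.

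**Figure D5:**
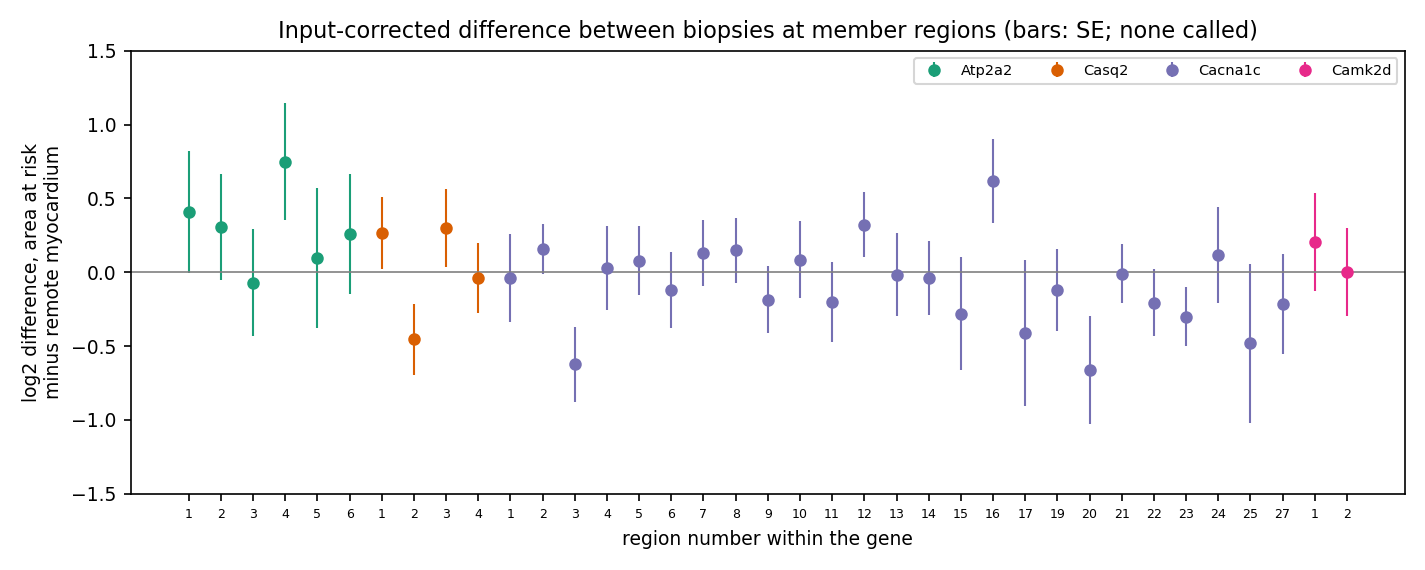
Input-corrected log2 difference between the area at risk and the remote myocardium (vertical axis) at the 37 tested member regions (horizontal axis, numbered within each gene), with SE bars over 24 libraries. The points scatter on both sides of 0, between -0.66 and 0.75, and none was called.

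Genes of like pattern were those closest to a member over 4 values, the log2 H3K9me2 over input at gene ends and at bodies in both biopsies, among genes fitted in both. The nearest to Atp2a2 were Furin and Ptp4a3, at Euclidean distances of 0.0889 and 0.169. The nearest to Casq2 was Igsf9b, at 0.0387, and for Cacna1c they were Eva1c and Zdhhc22, at 0.0826 and 0.0968. Camk2d was nearest to E2f3 and Bcl2, at 0.134 and 0.148, and E2f3 had -0.54 at its ends and 0.54 in its body in the area at risk.

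Partners of these proteins in heart muscle were read from a list of 36 genes, of which 28 held a region. Of their 91 tested regions in the area at risk 15 were called higher and 13 lower, with a median of -0.03, and of 92 in the remote myocardium 24 were higher and 25 lower, with a median of 0.01. These are 16.5% higher and 14.3% lower in the area at risk, against 11.4% and 12.3% of all regions, and 26.1% and 27.2% in the remote myocardium, against 20.6% and 19.9%. By gene, 5 were higher and 8 lower in the area at risk, and 7 were higher, 11 lower and 2 both ways in the remote myocardium. The lower ones included Calm3, a calmodulin gene, at -1.06 (SE 0.16) and -1.24 (SE 0.16) in the area at risk and the remote myocardium. Ppp1ca, a catalytic subunit of the phosphatase that acts on phospholamban, was at -1.27 (SE 0.26) and -1.37 (SE 0.25), and Prkaca, the catalytic subunit of protein kinase A, at -0.77 (SE 0.17) and -0.98 (SE 0.16). Tnnc1, the troponin that binds calcium on the thin filament, was at -1.13 (SE 0.26) and -0.96 (SE 0.24), and Jph2, which ties the sarcoplasmic reticulum to the cell membrane, at -0.66 (SE 0.20) and -1.02 (SE 0.19). The higher ones included Cacna1d, another L-type pore subunit, at 0.53 (SE 0.18) and 0.72 (SE 0.16), and Itpr2, a calcium release channel, at 0.51 (SE 0.15) and 0.75 (SE 0.14). Each was called by edgeR in both biopsies at 1 and the same region, chosen after the values were seen.

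Paralogs of the members were a list of 14 genes, 11 with a region. Cacna1d and Sln stand in both this list and that of the partners. Of their 58 tested regions in the area at risk 8 were called higher and 5 lower, with a median of 0.06, and of 57 in the remote myocardium 11 were higher and 11 lower, with a median of 0.07. The shares, 13.8% higher and 8.62% lower in the area at risk and 19.3% each way in the remote myocardium, are near those of all regions. By gene, 5 were called higher only, 1 lower only and 1 both ways in the area at risk. In the remote myocardium 4 were higher only, 4 lower only and 2 both ways. The genes named next were chosen after their values were seen. Atp2a1, the pump of fast skeletal muscle, was called both ways, in the area at risk at -0.48 (SE 0.11) in the region with the smaller p and at 0.38 (SE 0.15) in the other. Camk2g, a kinase of the same family as Camk2d, was called lower in 4 regions in the area at risk and 5 for remote myocardium. Ryr1, the release channel of skeletal muscle, was called higher in 4 regions of the remote myocardium, at most 0.72 (SE 0.17), and in none of the area at risk. That difference between biopsies was not tested as a group, and no region of any list was called between biopsies.

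For the other cells of the heart, 5 of 10 fibroblast genes and 8 of 10 endothelial genes held a region. The fibroblast list had 1 region higher and 1 lower of 11 in the area at risk (median -0.17) and 3 higher and 4 lower of 11 in the remote myocardium (median 0.26). The endothelial list had 7 higher and 7 lower of 49 in the area at risk (median 0.04) and 7 higher and 10 lower of 49 in the remote myocardium (median -0.02). By share, the fibroblast list had 9.09% each way in the area at risk and 27.3% higher and 36.4% lower in the remote myocardium. For the endothelial list these were 14.3% each way, then 14.3% and 20.4%. Of all regions, 11.4% were higher and 12.3% lower in the area at risk, and 20.6% and 19.9% in the remote myocardium. Neither list was called at any region between biopsies in H3K9me2 or input. Whether cell make-up had a part in the member values was not tested.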

How the data were processed

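H3K9me2 and input DNA were measured in 24 libraries. The authors deposited whole-number counts per region and library for 53386 regions of build mm10, with a log2 fold change, a p-value and an FDR (an adjusted p-value) per region and contrast, per the file headers. Bowtie2 2.2.2, SICER 1.1 and edgeR appear in the submitters' processing notes without roles. The way of calling regions and counting reads, and the treatment of duplicates, are not given in the sources used here.

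Regions within 2 kb of a member gene were taken with RefSeq gene coordinates, and RefSeq also gave the promoter sequences (GRCm38.p6). Counts were tested over all regions with edgeR 4.0.16 (R 4.3.3) by TMM scaling, filterByExpr, glmQLFit and a two-sided glmQLFTest, without a term for the mouse, and p-values were adjusted over all tested regions (Benjamini-Hochberg, threshold 0.05). Gene ends and bodies were compared in a fit over all protein-coding genes with regions of both kinds, on counts summed per gene, with each library as a term. CPM values are counts per 1000000 of a library's total over all regions. Standard errors were derived from the fold change and its F statistic. The steps were tested on simulated data. Alternatives were DESeq2 1.42.0, median-of-ratios scaling, no TMM, no filter, regions that overlap no other, windows of 1 and 5 kb, the gene start in place of both ends, the mouse as a block, and each mouse left out. A class of any RefSeq start was added after the values were seen.

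Libraries with 1 mouse number come from 1 animal by the labels, so the design pairs them. Deviations of same-numbered libraries from their group means correlated across regions at -0.00 to 0.14 in the area at risk (H3K9me2 with input) and at -0.15 to 0.05 between the H3K9me2 libraries of both biopsies. Libraries of a group differed by a chi-square per region of 1.02 to 2.00, and each was from another mouse, so none were merged. Members, gene lists and tests were chosen with earlier results of these data known. Named regions were, per gene and for ends and bodies apart, the region with most reads and the called region of smallest p in each direction, and all others, those of the biopsy contrasts included, were chosen after their values were seen. Of the genes of like pattern, the nearest to each member are given, and a further one is not reported here. Precision is limited by depth, with between 416683 and 2478668 counts per library over all regions.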

Additional observations from a re-analysis of the deposited data

Results flagged for a closer look

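Of 64 sets of 6 libraries tested for a sample far from the others, 3 held such a sample, where chance flags about 1 set in 20. The Atp2a2 gene body sum of H3K9me2 in the area at risk was 34.3 CPM in mouse 23, against a group median of 18.7 CPM. Mouse 23 was also the only mouse in which this sum stood above its input, and Atp2a2 region 4 was called in the area at risk without it. The Atp2a2 gene end sum of input in the remote myocardium was 53.9 CPM in mouse 19, against a median of 67.7 CPM. Cacna1c region 3 held 30.6 CPM in H3K9me2 of the area at risk in mouse 19, against a median of 24.5 CPM.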

How the results depend on the processing

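The count of member regions called higher in the area at risk ranged from 3 to 10 and that called lower from 2 to 5 when mice were left out in turn (9 and 4 with all). DESeq2 gave 6 higher and 3 lower there. In the remote myocardium the higher count was 9 with DESeq2, 9 with only the regions that overlap no other, and 7 to 13 with mice left out (14 with all). With any RefSeq start as the class, made after the values were seen, only Cacna1c and Camk2d could be fitted. Both were called in each biopsy. With ends and bodies all 4 genes were fitted and 1 was called. The mouse as a block gave 11 higher and 6 lower in the area at risk and 13 higher and 7 lower in the remote myocardium, left Camk2d end minus body at -1.23 and -1.42, and turned the call of 5 member regions (in the area at risk Atp2a2 region 1 and Cacna1c regions 8, 11 and 23 were gained; in the remote myocardium Cacna1c region 12 was lost). The pairing changed no other member call. All regions called higher in the area at risk were 2904 without mouse 19, against 4662. With mice left out, values near 0 changed sign: Casq2 region 2 in the area at risk (-0.053 to 0.13), Cacna1c region 27 there (-0.15 to 0.080), Cacna1c region 23 in the remote myocardium (-0.10 to 0.013), Atp2a2 end minus body (-0.30 to 0.13 in the area at risk, -0.22 to 0.0071 in the remote myocardium), Casq2 end minus body in the area at risk (-0.059 to 0.20), Cacna1c end minus body in the remote myocardium (-0.29 to 0.0070) and Camk2d region 2 between the biopsies in H3K9me2 (-0.12 to 0.23). The cause was not tested. No member was called between biopsies under any alternative. Low counts per region limit what could be seen.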
